A study of Drosophila melanogaster with 65 samples.

Results

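The regions described here are the pericentric ends of chromosome arms 2L, 3L and 3R and the whole of chromosome 4 of Drosophila melanogaster, seen through the histone mark H3K9me3 in OSS cells. Members are the H3K9me3 summits (the single bases where called peaks reach their top) of the siGFP list that lie on 2L from position 22000000, on 3L from 22900000, on 3R up to 4200000, or anywhere on chromosome 4. Of the 16939 summits in that list, 5186 met this rule, with 640 on 2L, 2497 on 3L, 1790 on 3R and 259 on chromosome 4. The rest of arms 2L, 3L and 3R, with 4497 summits, served for comparison. Positions are on Release 6 of the genome, as judged from where the tables place genes, and the outer end of an arm was taken as the last position listed on it.

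OSS cells are a cultured line of the somatic cells that surround the fly germline, and hold no germ cells. Cut&Run, in which a nuclease held by an antibody releases the DNA around a histone mark, was run for H3K9me3 in 1 library each of cells given siRNA against Traffic jam (siTj) or against GFP (siGFP, the control), and in 2 libraries of cells labelled Plain. Matching H3K4me3 lists, 1 list of Traffic jam (TJ) binding peaks and long RNA libraries of siTj, siPiwi, siCi and siGFP cells (3 each) were used beside them. RNA levels in tissue came from 6 wild-type ovary libraries, labelled FITS, FlamBG, FlamKG, FPSE1, FPSE2A and FPSE2B, which hold germ cells as well as somatic cells. The series text names TJ, Piwi and Ci as the siRNA targets, and asks here how the marks stand once TJ is knocked down. The labels do not say what separates the Plain libraries from each other or whether replicates were separate cultures.

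H3K9me3 is set by the methyltransferases Su(var)3-9 and Eggless and read by Heterochromatin Protein 1, and long stretches of it pack the repeat-rich DNA beside centromeres. Genes inside pericentric heterochromatin are few, often very long because of repeats in their introns, and some need this setting for their activity. Chromosome 4 is small, carries ordinary genes among repeats, and is coated by the protein POF together with H3K9 methylation. In ovarian somatic cells Piwi, guided by small RNAs, directs H3K9me3 to transposons, and TJ is a transcription factor that drives piwi in these cells.

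Targeted genes were lower in every knockdown library than in every siGFP library. The tj gene averaged 460.3 ± 210.3 CPM (counts scaled to the TMM-adjusted library size) in siTj cells and 1449 ± 507.0 CPM in siGFP cells (SD, n = 3 each). The piwi gene averaged 88.3 ± 46.9 CPM in siPiwi cells and 761.3 ± 125 CPM in siGFP cells, and ci averaged 58.6 ± 15.5 CPM in siCi cells and 140.3 ± 36.6 CPM in siGFP cells. The 6 markers fixed for ovarian somatic cells ran between 151.3 and 2031 CPM in siGFP cells. Of 8 germ cell markers 1 was over 10 CPM, bgcn at 42.2 to 78.1 CPM, while nos and osk were under 1 CPM and vas at 4.43 to 7.55 CPM. Long RNA libraries held between 9075806 and 54359738 unique reads on the gene's own strand in OSS cells. Libraries siTj 2 and siPiwi 2 stood apart by reads on the opposite strand, 9.27% and 12.4%, against 4.07 to 5.08% in the other 10 OSS libraries. H3K9me3 lists held 8829 summits in siTj, 16420 in Plain 1, 11124 in Plain 2 and 16939 in siGFP cells, and with 1 library a treatment and a library cannot be told apart. No pair of lists shared a summit with the same position and score.

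All 3 pericentric ends carried H3K9me3 summits at several times the density of the arms they belong to, and chromosome 4 lay between. In siGFP cells there were 42.3 summits per 100 kb on pericentric 2L, 47.9 on pericentric 3L and 42.6 on pericentric 3R. Chromosome 4 had 19.2 per 100 kb (exact Poisson 95% interval 16.96 to 21.7), and the rest of the arms had 6.18 (6.0 to 6.36). These intervals, and the binomial ones given later, cover counting error only. The intervals of pericentric 2L and 3R overlapped, that of 3L (46.1 to 49.9) lay above that of 3R, and chromosome 4 lay apart from all of them.

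Every region was denser than the rest of the arms in each of the 4 lists. Pericentric 2L was 15.7 times as dense as the rest of the arms in siTj, 6.18 times in Plain 1, 8.20 times in Plain 2 and 6.84 times in siGFP cells. Pericentric 3L stood highest, at 18.6, 7.13, 9.67 and 7.76 times in the same order of lists, and pericentric 3R was at 14.7, 6.63, 7.96 and 6.90 times. Chromosome 4 was at 3.35 times in siTj, 5.22 in Plain 1, 5.08 in Plain 2 and 3.11 in siGFP cells. The 4 lists differ in treatment, and an exact two-sided permutation test over them cannot go below p = 0.125, so these ratios are given without a test. The pericentric ratios were highest in siTj, whose list is the shortest, whereas on chromosome 4 the siTj ratio lay near that of siGFP.

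**Figure D1:**
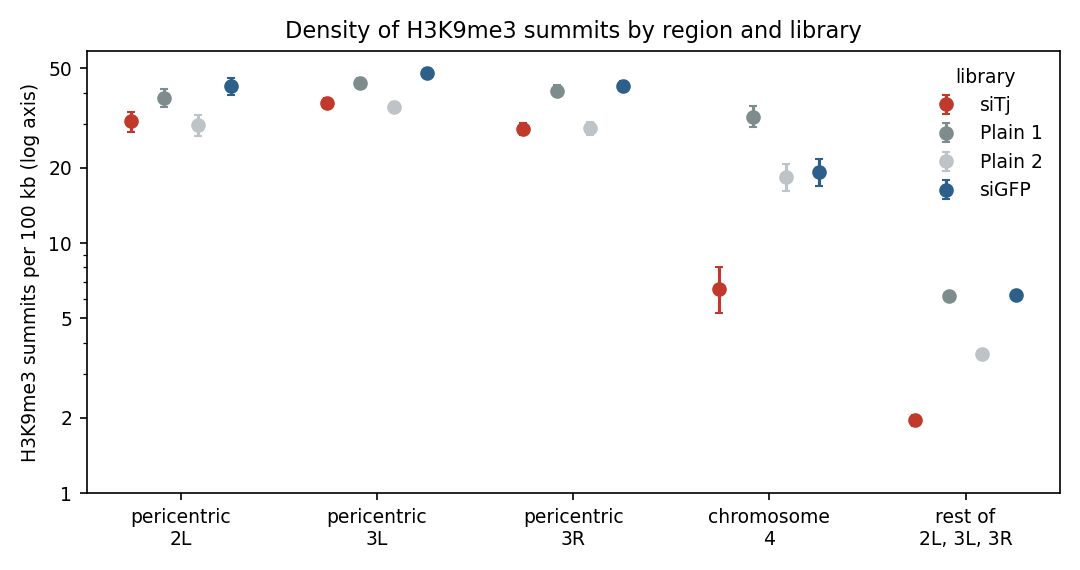
H3K9me3 summits per 100 kb (log axis) in each region for the siTj, Plain 1, Plain 2 and siGFP lists, with exact Poisson 95% intervals that cover counting error only. The 3 pericentric ends lie between 28.7 and 47.9 in all lists, while chromosome 4 spans 6.53 in siTj cells to 32.1 in Plain 1 cells.

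Summits were spread along the pericentric ends rather than held in a few places. In 100 kb bins the siGFP list had between 14 and 83 summits on 2L (median 44), between 3 and 79 on 3L (median 49) and between 15 and 76 on 3R (median 43), and no full bin was empty. On chromosome 4 the 13 full bins held between 9 and 31 summits, with a median of 18. Neighbouring siGFP summits lay a median of 1342 bp apart on 2L, 1308 bp on 3L and 1423 bp on 3R, and 2062 bp apart on chromosome 4.

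Long stretches without a summit also occurred. The longest of chromosome 4 in siGFP cells was chr4:214195-286697, a stretch of 72502 bp that holds CG31999, yellow-h, CG1674, dpr7, RhoGAP102A, NfI and the start of Syt7. CG1674 was at 1.497 CPM per kb (CPM per kilobase of the gene's annotated UTR and coding parts), and each of the other genes there was at 0.0998 or less. In siTj cells the longest stretch ran over the same place, chr4:200954-283195, and in Plain 2 cells it was chr4:214098-283210. The siTj stretch also takes in Crk, at 88.1 CPM per kb in siGFP cells. Plain 1 differed, with chr4:479248-545861, which spans zfh2, the gene of a zinc finger and homeodomain transcription factor. That stretch also reaches into Asator and Thd1, at 4.61 and 22.2 CPM per kb in siGFP cells. On 2L the longest siGFP stretch, chr2L:22031350-22078542, lay near the outer border of the region over 7 short genes at 0.202 CPM per kb or less.

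The borders of the rule did not follow a step in the mark. In the 100 kb just inside and just outside the border there were 14 and 29 summits on 2L, 12 and 58 on 3L, and 30 and 38 on 3R. Summit density was thus no higher just inside than just outside any of these borders.

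Scores differed by region in a fixed order in siGFP cells. A score is the authors' value for each summit, which by its lowest value of 1.30 fits −log10 of a q-value. Its median was 10.2 on pericentric 2L, 8.51 on 3L and 7.22 on 3R, against 6.43 on chromosome 4 and 6.85 in the rest of the arms. The order 2L, 3L, 3R held in each list, at 5.34, 4.69 and 4.26 in siTj, 11.6, 10.1 and 8.58 in Plain 1, and 7.85, 7.26 and 5.95 in Plain 2. Chromosome 4 changed place, with 3.96 in siTj against 9.83 in Plain 1 and 6.61 in Plain 2 cells. Medians of different lists also carry the lists' own medians, which were 4.34 in siTj, 9.81 in Plain 1, 6.61 in Plain 2 and 7.55 in siGFP cells.

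The strongest pericentric siGFP summits lay far from genes. On 2L the top summit, at 22461503 with a score of 78.6, was 70775 bp from the ribosomal protein gene RpL5, and it had a counterpart in every list, with scores of 76.3 in siTj, 244.1 in Plain 1 and 107 in Plain 2 cells. The top 3L summit, at 27814881 with a score of 269.3, was 41484 bp from eIF-4B and had a counterpart in Plain 1 alone. The 3 top summits of 3R lay at 17366, 40226 and 140386, each with an H3K4me3 summit within 500 bp, as the top 2L summit also had. On chromosome 4 the 3 top summits fell within about a gene's length of each other, at 592691, 593389 and 594727, beside CG1909 and CR45199. Their scores were 171.1, 137.6 and 164.3 in siGFP cells, and each had a counterpart in the siTj list, with scores of 66.2, 69.7 and 57.9.

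On 3R, the sites where both marks were called lay mostly in the stretch before Myo81F. It runs from position 1 to 567074, has no annotated gene in the tables, and held 36.2 H3K9me3 summits per 100 kb. In siGFP cells 55 of the 1790 summits of 3R had an H3K4me3 summit within 500 bp, and 49 of these lay in that gene-free stretch. Their median score was 41.9, against 6.94 for 3R summits without an H3K4me3 summit. Other lists showed the same place, with 66 of 68 such summits in siTj, 48 of 54 in Plain 1 and 77 of 83 in Plain 2 cells. Outside 3R such pairs were fewer in siGFP cells, at 5 of 640 summits on 2L, 26 of 2497 on 3L and 2 of 259 on chromosome 4, against 66 of 4497 in the rest of the arms. The 3R share was 3.07% in siGFP, 5.65% in siTj, 3.16% in Plain 1 and 6.88% in Plain 2 cells, above every other region in each list. Chromosome 4 was at 3.41% in siTj, 0.463% in Plain 1 and 1.21% in Plain 2 cells. The rest of the arms was at 2.46%, 1.48% and 1.33% in that order. On 3L there were 64 of 1897 such summits in siTj, 55 of 2282 in Plain 1 and 54 of 1818 in Plain 2 cells. On 2L there were 17 of 464, 13 of 574 and 8 of 448 in that order. TJ peaks were few in all regions, 1 on 2L, 6 on 3L, 0 on 3R and 3 on chromosome 4 of 1987 in the deposited list. Per 100 kb these came to 0.0661 on 2L, 0.115 on 3L and 0.223 on chromosome 4, against 1.70 in the rest of the arms.

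Fewer H3K9me3 summits were listed in siTj than in siGFP cells, and the pericentric ends kept a larger share than chromosome 4. The siTj count was 72.5% of the siGFP count on pericentric 2L (464 and 640 summits), 76.0% on 3L (1897 and 2497) and 67.3% on 3R (1204 and 1790). On chromosome 4 it was 34.0%, with 88 summits in siTj and 259 in siGFP cells, near the 31.6% of the rest of the arms. Plain 1 cells had 432 summits on chromosome 4 and Plain 2 cells had 247, so siTj lay below all 3 other lists there, whereas on pericentric 2L and 3L it lay above Plain 2. With 1 siTj library the difference has no replicate check, and the siTj list is shorter as a whole.

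The H3K4me3 lists of the same treatments also kept larger shares on the pericentric ends than on chromosome 4. The siTj count of H3K4me3 summits was 81.8% of the siGFP count on 2L, 84.9% on 3L and 87.8% on 3R, against 44.8% on chromosome 4 (30 and 67 summits) and 47.8% in the rest of the arms. The part of library quality or depth in the H3K9me3 counts was not tested, since read depth of the Cut&Run libraries was not given in the sources used here.

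Cutting every list to the same length changed the picture for the pericentric ends. With the 8829 best scores of each list, siTj had 113% of the siGFP count on 2L, 130% on 3L and 136% on 3R, and 68.8% in the rest of the arms. On chromosome 4 siTj kept 88 summits and siGFP 108, or 81.5%, while Plain 1 had 239 and Plain 2 had 209. Pericentric summits thus made up a larger part of the siTj list than of the siGFP list, and chromosome 4 made up 0.997% of the siTj list and 1.22% of the siGFP list. At equal length the siGFP list itself lay far below both Plain lists on chromosome 4.

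The lower count on chromosome 4 was seen along its whole length. All 13 full bins had fewer summits in siTj than in siGFP cells, with siTj at 11.1 to 74.2% of siGFP and a median of 31.8%. On the pericentric ends siTj was lower in 14 of 15 bins of 2L (median 72.7%), 49 of 52 bins of 3L (median 72.3%) and 38 of 42 bins of 3R (median 62.8%). Plain 1 was lower than siGFP in 1 of 13 bins of chromosome 4, and Plain 2 in 6 of 13.

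**Figure D2:**
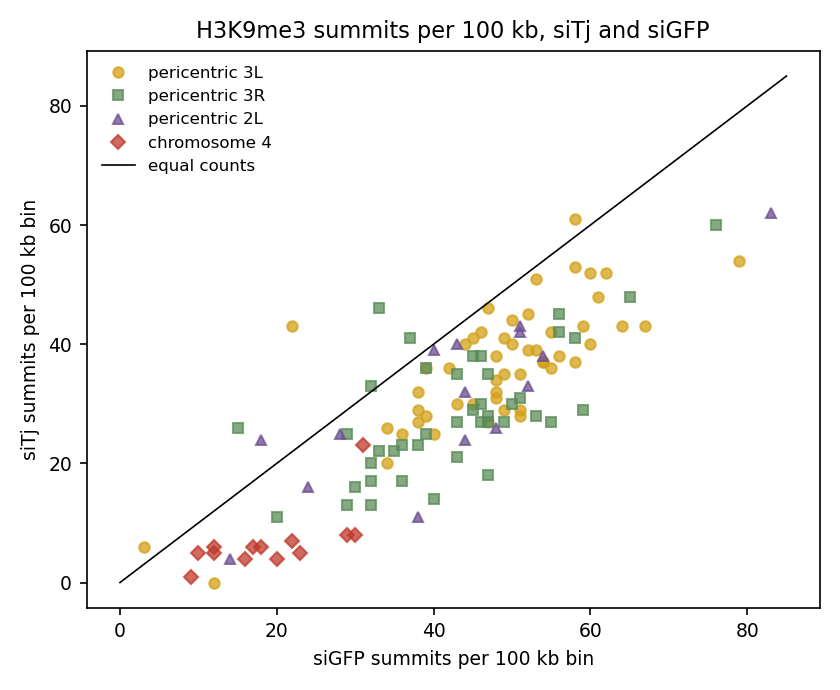
H3K9me3 summits per 100 kb bin in siTj cells (vertical axis) and siGFP cells (horizontal axis), 1 point a bin, with the line of equal counts. All 13 bins of chromosome 4 lie below the line at low siTj counts, and most pericentric bins lie below it at higher counts.

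Position by position, most pericentric siGFP summits had a siTj summit within 500 bp, and most summits of chromosome 4 did not. The share found in siTj cells was 56.1% on pericentric 2L (exact binomial 95% interval 52.2 to 60.0%), 57.7% on 3L (55.7 to 59.6%) and 51.2% on 3R (48.9 to 53.6%). It was 32.4% on chromosome 4 (26.8 to 38.5%), with 84 of 259 summits, and 26.4% in the rest of the arms (25.1 to 27.7%). A dense list meets more summits by position alone, so the covered bases are given beside these shares. Bases within 500 bp of a siTj summit made up 28.6% of 2L, 33.6% of 3L, 26.6% of 3R, 6.27% of chromosome 4 and 1.83% of the rest of the arms.

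The Plain lists held chromosome 4 summits in shares near or above those of the pericentric ends. Plain 1 held 65.6% of the siGFP summits of 2L, 66.2% of 3L and 69.9% of 3R, and 70.3% of chromosome 4 (64.3 to 75.8%). Plain 2 held 57.3%, 58.2% and 54.9% on the pericentric ends in that order, and 61.4% on chromosome 4 (55.2 to 67.4%). Both Plain lists together held 47.8% on 2L, 48.1% on 3L, 45.4% on 3R and 52.5% on chromosome 4. For the rest of the arms Plain 1 held 66.2% (64.8 to 67.5%) and Plain 2 held 49.7% (48.2 to 51.1%). The siTj interval thus lay below those of both Plain lists on chromosome 4 and in the rest of the arms, while on all 3 pericentric ends it overlapped that of Plain 2. These intervals do not allow for list density. Bases within 500 bp of a Plain 1 and a Plain 2 summit made up 29.1% and 17.7% of chromosome 4, against 6.27% for siTj. In the rest of the arms they made up 5.55% and 3.41%, against 1.83%. On 2L they made up 34.7% and 28.2%, on 3L 40.4% and 33.4%, and on 3R 37.4% and 27.3%. Summits of Plain 1 were also found less often in siTj on chromosome 4, at 14.1%, against 49.3% on 2L, 50.2% on 3L, 46.5% on 3R and 17.9% in the rest of the arms.

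**Figure D3:**
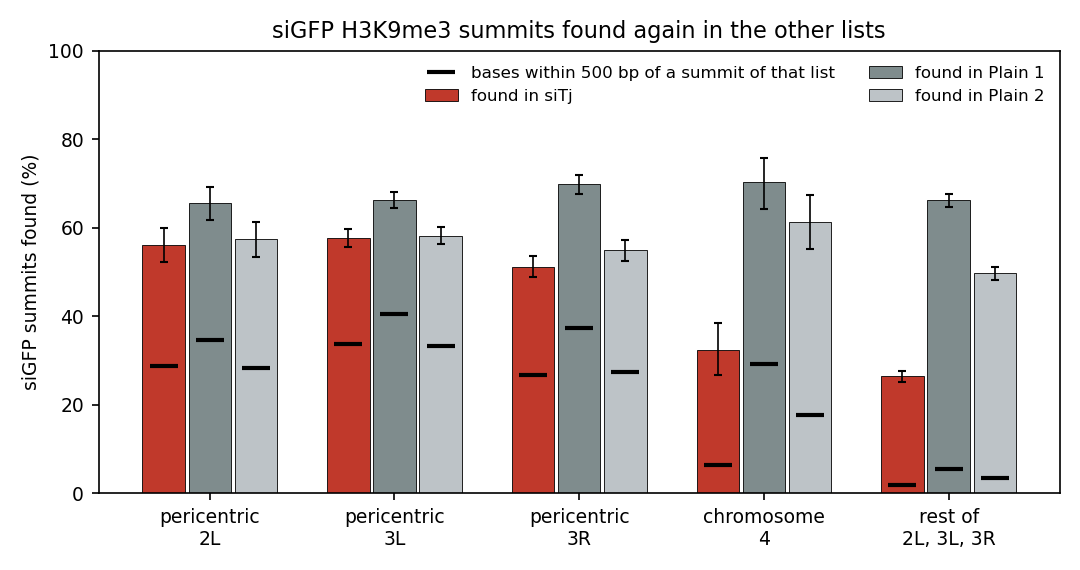
Share of siGFP H3K9me3 summits with a summit of the siTj, Plain 1 or Plain 2 list within 500 bp (bars, exact binomial 95% intervals), with black dashes for the share of bases within 500 bp of a summit of that list. The siTj bar is 32.4% on chromosome 4 and 51.2 to 57.7% on the pericentric ends, while the Plain 1 bars lie between 65.6 and 70.3%.

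Stronger siGFP summits were found in siTj more often than weaker ones in every region. Among summits in the upper part of each region's scores (split at its median) 75% were found on 2L, 69.8% on 3L, 68.9% on 3R and 44.0% on chromosome 4. In the lower part the shares were 37.2%, 45.2%, 33.5% and 20%. Plain 1 differed less by score on 2L and 3L, where it held 65.0% of the upper and 66.2% of the lower part on 2L, and 65.4% and 67.2% on 3L. Elsewhere the Plain lists also held more of the upper part. Plain 1 held 72.3% and 67.5% on 3R, and 76.9% and 63.2% on chromosome 4. Plain 2 held 58.4% and 56.2% on 2L, 62.3% and 54.0% on 3L, 64.9% and 44.9% on 3R, and 71.6% and 50.4% on chromosome 4. In the other direction, siTj summits that had a siGFP summit within 500 bp made up 73.1% on 2L, 73.0% on 3L, 73.0% on 3R and 83.0% on chromosome 4, where 73 of 88 did.

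The regions held 232 annotated genes, 49 on 2L, 60 on 3L, 19 on 3R and 104 on chromosome 4. At least 1 siGFP summit lay inside 19 genes of 2L (38.8%), 39 of 3L (65.0%), 11 of 3R (57.9%) and 59 of chromosome 4 (56.7%). In the rest of the arms 872 of 10345 genes (8.43%) had one. Genes with a summit were long, with a median span of 6056 bp on 2L, 7118 bp on 3L, 21673 bp on 3R and 11318 bp on chromosome 4, against 1364, 1190, 1375 and 2507 bp for genes without one. The share of summits inside genes was close to the share of bases that genes take up, 27.2% and 28.2% on 2L, 33.4% and 34.0% on 3L, 69.4% and 69.7% on 3R, and 77.2% and 76.0% on chromosome 4.

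A few giant genes held most of the summits inside pericentric genes. Myo81F (chr3R:567075-2532932), which encodes an unconventional myosin, held 814 summits in siGFP cells, and Pzl (chr3R:2554161-3263582), which encodes a mechanosensitive ion channel, held 323. On 3L, CG45782 (chr3L:25236939-25670980) held 219 summits, Snap25 (chr3L:24074179-24299205), a gene of synaptic vesicle fusion, 109, and CG40178 (chr3L:25798440-26013721) 98. On 2L, CG40006 (chr2L:22622416-22756349) held 73, CG17018 (chr2L:22308754-22368796) 35, and Ir40a (chr2L:22189525-22214376), an ionotropic receptor gene, 17. Per kb these genes held between 0.414 summits in Myo81F and 0.684 in Ir40a.

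The same genes kept many summits in siTj cells. Myo81F had 482 summits in siTj, 759 in Plain 1, 503 in Plain 2 and 814 in siGFP cells. Pzl had 204, 315, 212 and 323 in that order of lists, and CG45782 had 180, 197, 157 and 219. CG40006 had 56, 73, 53 and 73. In each of them siTj lay below Plain 1 and siGFP and near Plain 2, above it in CG45782 and CG40006 and below it in Myo81F and Pzl.

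Little RNA of these giant genes fell in annotated parts. CG45782 was at 0 CPM per kb in all 3 siGFP libraries, and Pzl was at 0, 0.0186 and 0 CPM per kb. Myo81F was at 0, 1.11 and 0.809 CPM per kb, and CG40006 at 0, 0.0399 and 0 CPM per kb. The annotated UTR and coding parts of Myo81F come to 280 bp. Between 0 and 1.40% of the unique reads on the Myo81F locus, and between 0.304 and 0.483% of those on Snap25, lay in annotated UTR or coding parts. In wild-type ovaries CG40006 had a median of 8.11 CPM per kb (6.28 to 13.3 over 6 libraries) and CG17018 had 113 CPM per kb (93.6 to 176.2), while CG17018 was at 0.205, 0.799 and 0.287 CPM per kb in siGFP cells. In bulk samples fewer cells of a type and less RNA per cell cannot be told apart, and ovaries hold germ cells that OSS cells lack. Ovary libraries were also scaled apart from OSS libraries, here and below, so their levels do not share 1 scale.

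Other pericentric genes with summits inside were well expressed. RpL5 (chr2L:22532278-22536884), with 1 summit in each of the 4 lists, was at 226, 227 and 458 CPM per kb in siGFP cells. Dbp80 (chr3L:27279315-27422159), a gene of a DEAD-box RNA helicase, held 83 siGFP summits and was at 70.3, 49.4 and 180.1 CPM per kb. Parp (chr3R:3461350-3587054), which encodes poly(ADP-ribose) polymerase, held 79 summits and was at 11.9, 15.4 and 55.4 CPM per kb. Thus Dbp80 and Parp carried about as many summits as AGO3, which is described next, at far higher levels.

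AGO3 (chr3L:23554592-23689640), the germline Argonaute of the piRNA amplification cycle, held 79 siGFP summits. It was at 0.0191, 0.275 and 0 CPM per kb in siTj cells and at 0, 0.0232 and 0.0337 CPM per kb in siGFP cells, and these groups overlapped. Wild-type ovaries had a median of 85.7 CPM per kb (45.5 to 249.4). The ecdysone synthesis gene nvd held 42 summits and was at 2.03 to 14.5 CPM per kb in ovaries, against 0.286, 0.0798 and 0.0291 CPM per kb in siGFP cells. The light gene lt, needed for vesicle transport to lysosomes, held 9 summits and was at 6.20, 5.40 and 12.1 CPM per kb.

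Several active pericentric genes had no summit inside. RpL15, at 209, 257 and 683 CPM per kb in siGFP cells, and Set1, an H3K4 methyltransferase gene at 11.7, 12.2 and 16.6 CPM per kb, had 0 summits in all 4 lists. Annotated bounds of Set1 differed between libraries, which makes its count uncertain. Alg-2 likewise had 0 summits in all lists and was at 10.2, 18.9 and 87.3 CPM per kb. The G protein gene cta had 0 in siGFP and 1 in each of the other lists.

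On chromosome 4 summits were shared among many genes, few in each. The muscle protein gene bt (chr4:724399-776474) held the most in siGFP cells, though not in the Plain lists, with 11 in siTj, 9 in Plain 1, 3 in Plain 2 and 16 in siGFP cells. The synaptic gene unc-13 (chr4:870929-912331) held 3, 27, 11 and 13 in that order, and the kinesin gene Kif3C (chr4:1147465-1169239) held 3, 13, 12 and 10. Their levels in siGFP cells were unlike, with bt at 0.0447, 0.167 and 0.0145 CPM per kb, unc-13 at 17.9, 12.7 and 14, and Kif3C at 0.254, 1.03 and 2.12. Of the 28 genes with 3 or more siGFP summits, 25 had fewer in siTj cells and 3 had as many, and their summits added up to 62 in siTj, 225 in Plain 1, 137 in Plain 2 and 164 in siGFP cells. These genes were picked by their siGFP counts, and the siTj list is the shortest, so lower siTj counts were partly fixed by the choice.

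Highly expressed genes of chromosome 4 also carried summits. ND-49 (chr4:568295-571554), a subunit gene of mitochondrial complex I, was at 139, 106 and 162 CPM per kb and held 1 summit. The microRNA silencing gene gw (chr4:649040-663103) was at 148, 130.4 and 85.4 CPM per kb, and held 0 summits in siTj, 8 in Plain 1, 3 in Plain 2 and 3 in siGFP cells. PMCA (chr4:329516-358657), which encodes a calcium pump of the cell membrane, was at 172, 105 and 80.5 CPM per kb and held 2, 14, 9 and 6 summits in that order. Bounds of PMCA differed between libraries. The initiation factor gene eIF4G held 5 siGFP summits, and the Wnt pathway genes pan and lgs held 8 and 4. RpS3A, the most expressed named gene of the chromosome at 803, 601 and 419 CPM per kb, and the adaptor gene Crk had 0 summits in all lists.

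Levels and summits of developmental transcription factor genes of chromosome 4 varied in siGFP cells. The Hedgehog pathway gene ci was at 23.2, 23.3 and 34.8 CPM per kb with 1 siGFP summit, and pan was at 13.02, 12.4 and 9.51 CPM per kb. The genes ey, toy, sv and zfh2 were nearly silent. The eye gene ey held 3 siGFP summits and its relative toy held 2, while sv and zfh2 held 0 in every list. Means over the 3 siGFP libraries were 0.0739 CPM per kb for ey, 0.0175 for toy, 0.00980 for sv and 0.0525 for zfh2. Of the 39 genes of chromosome 4 that span 10 kb or more, 4 had no summit in any list, and these were zfh2, sv, CG1674 and RhoGAP102A. On the pericentric ends 1 of 9 such genes of 2L had none, and none of 17 on 3L or 9 on 3R.

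Genes with summits were expressed more on chromosome 4 than on the pericentric ends. The median level of the 59 genes with a summit on chromosome 4 was 5.94, 4.44 and 9.0 CPM per kb in the siGFP libraries, and 36 of them (61.0%) reached 1 CPM per kb. On 2L the medians were 0.205, 0.459 and 0.148 CPM per kb with 6 of 19 genes at 1 or more, and on 3L 0, 0.0716 and 0.0337 with 13 of 39. On 3R they were 0, 0.274 and 0.166 CPM per kb with 2 of 11. With reads and length of the whole locus, a choice made after seeing the data, the median over genes was 2.23 on chromosome 4, against 0.203 on 2L, 0.0406 on 3L and 0.0625 on 3R. Without library siGFP 2 the median over genes was 0.208 on 2L, against 0.430 with it, and 0.0836 on 3R, against 0.160 with it, and without siGFP 3 the 3L median was 0.0358, against 0.0745. Every chromosome 4 value lay above every pericentric one, and no test was made of this difference since it lies between genes and not between samples.

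On chromosome 4 genes with a summit had the higher levels, and on 3L and 3R the lower ones. On chromosome 4 the 45 genes without one had medians of 0, 0.114 and 0.0913 CPM per kb, below the genes with one in all 3 libraries. On 3L genes without a summit had medians of 0.264, 0.703 and 3.52 CPM per kb, and on 3R 1.99, 3.79 and 9.94, above the genes with one in all 3 libraries. On 2L the order changed between libraries, with 0, 0.206 and 0.232 CPM per kb for genes without a summit. The rest of the arms had the order of chromosome 4, with medians over genes of 0.912 CPM per kb with a summit and 0.403 without. Pericentric genes with 3 or more summits on any of the 3 ends had a median of 0.243 CPM per kb, those with 1 or 2 had 0.0877, and those with none 0.199, so the order there depended on how many summits were asked for. Genes with a summit were also longer in every region, which was not separated from level.

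**Figure D4:**
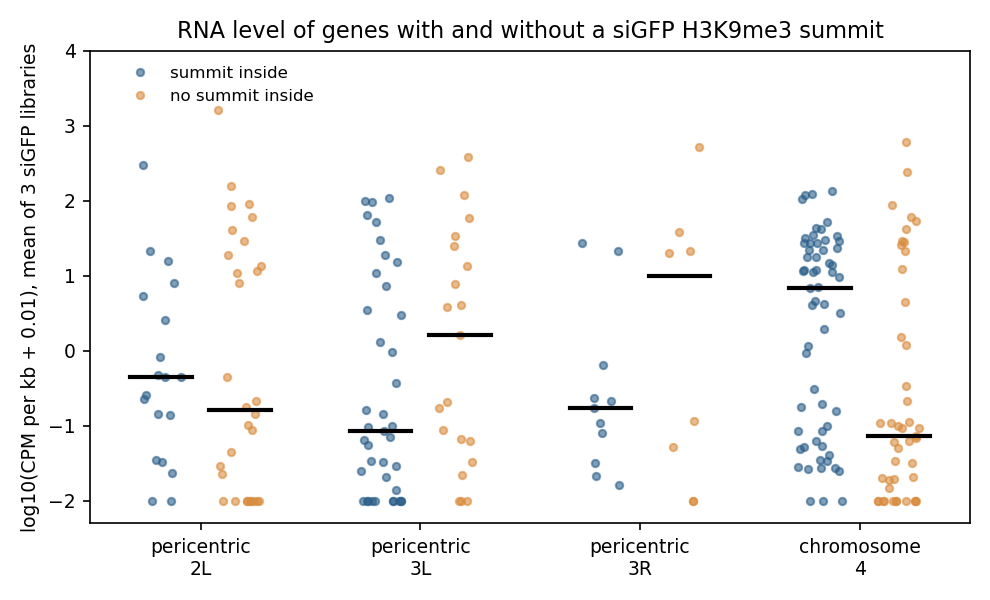
RNA level of each gene in the 4 regions (log10 of CPM per kb plus 0.01, mean of 3 siGFP libraries), for genes with a siGFP H3K9me3 summit inside and genes without, with black bars at the median. On chromosome 4 the genes with a summit have the higher median, and on 3L and 3R the lower one.

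In both settings genes with H3K4me3 at the start had the higher levels. Of the genes with an H3K9me3 summit inside, 23 of 59 (39.0%) on chromosome 4 and 14 of 69 (20.3%) on the pericentric ends had an H3K4me3 summit within 500 bp of their start in siGFP cells. Of the genes without an H3K9me3 summit inside, 13 of 45 (28.9%) on chromosome 4 and 28 of 59 (47.5%) on the pericentric ends had one. The 23 chromosome 4 genes with both had medians of 22.2, 21.7 and 24.1 CPM per kb in the siGFP libraries, and the 14 pericentric ones 14, 12.1 and 32.7. Genes with an H3K9me3 summit inside but no H3K4me3 summit at the start had medians of 0.0972, 0.169 and 0.0703 CPM per kb on chromosome 4, and 0, 0.0716 and 0.0307 on the pericentric ends. Genes with H3K4me3 at the start and no H3K9me3 summit inside had medians of 9.48, 12.1 and 39.7 CPM per kb on chromosome 4 and 12.8, 12.3 and 20.3 on the pericentric ends.

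No H3K9me3 summit came close to a start with H3K4me3 in either setting. Within 500 bp on each side of such a start there were 0 summits at 35 starts of chromosome 4 and 0 at 42 pericentric starts, which allow up to 1.05 and 0.878 summits per 10 kb. At starts without H3K4me3 there were 1.32 summits per 10 kb on chromosome 4 (interval 0.605 to 2.51) and 2.59 on the pericentric ends (1.62 to 3.92). In the rest of the arms starts with H3K4me3 had 0.0524 summits per 10 kb (0.0300 to 0.0851), below what the counts of 0 allow, with 16 of 3179 such genes carrying both marks at the start. No difference from the rest was thus detectable at starts with H3K4me3.

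Farther into such genes summits appeared again in both settings. On chromosome 4 the bodies of genes with H3K4me3 at the start had 0.211 summits per 10 kb between 1000 and 2500 bp from the start (0.00535 to 1.18). They had 2.93 between 2500 and 5000 bp (1.77 to 4.58) and 3.68 between 5000 and 10000 bp (2.56 to 5.12). Genes without H3K4me3 had 1.83 per 10 kb between 5000 and 10000 bp (1.22 to 2.63), an interval that overlapped. On the pericentric ends genes with H3K4me3 at the start stayed lower, at 1.07 per 10 kb between 2500 and 5000 bp (0.431 to 2.21) and 1.59 between 5000 and 10000 bp (0.844 to 2.71). The intervals of the 2 settings overlapped in both windows. Pericentric genes without H3K4me3 had 4.30 per 10 kb between 5000 and 10000 bp (3.25 to 5.57). Upstream, between 5000 and 2500 bp before the start, the pericentric density was 4.48 per 10 kb (3.29 to 5.95) with H3K4me3 and 4.0 without it (3.20 to 4.95).

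**Figure D5:**
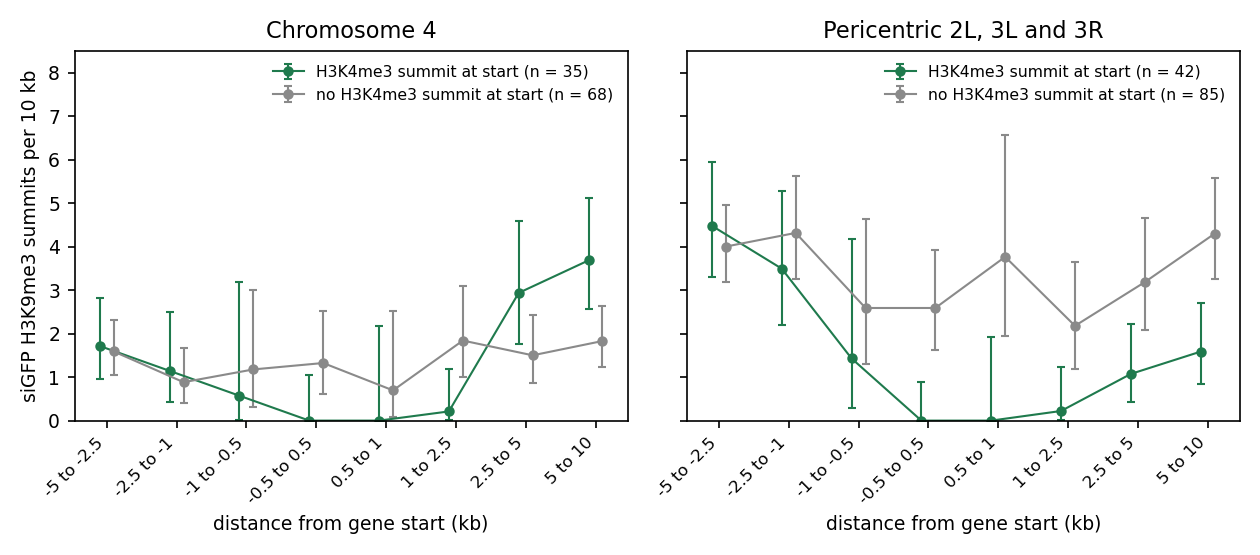
siGFP H3K9me3 summits per 10 kb by distance from the gene start (negative is upstream) on chromosome 4 and the pericentric ends, for starts with and without an H3K4me3 summit within 500 bp, with exact Poisson 95% intervals. A summit near several starts was counted for each, which the intervals do not allow for. Both curves for marked starts are 0 around the start, and the chromosome 4 curve reaches 3.68 between 5 and 10 kb into the gene.

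Many genes with a summit in siGFP cells had none in siTj cells. Of the genes with a siGFP summit, 28 of 59 on chromosome 4 had none in siTj, against 7 of 19 on 2L, 13 of 39 on 3L and 3 of 11 on 3R. In the rest of the arms 510 of 872 had none. The same chromosome 4 genes had none in 2 cases in Plain 1 and 6 in Plain 2. All of these genes were picked by having a siGFP summit, and the siTj list is the shortest, so such losses were partly fixed by the choice. Genes with none in siTj took in PlexB, which had 8 in siGFP cells, and ey and gw, which had 3 each. MED26 had 5 in both lists and lgs 4 in both.

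RNA of the genes in these regions was tested with edgeR in a fit over all genes. Of the 232 genes 151 had counts enough to be tested, with 28 on 2L, 36 on 3L, 12 on 3R and 75 on chromosome 4. None was called in siTj against siGFP cells at an adjusted p of 0.05 by edgeR's quasi-likelihood test, in which 5 of 10724 genes, or 0.0466%, were called in all. An unadjusted p under 0.05 was found for 5 of the 151 genes and for 487 of the 6609 genes tested in the rest of the arms. With the replicate number as a block edgeR called 3.52% of all genes and again 0 of the 151, with a lowest adjusted p of 0.0702. With the block 29 of the 151 had an unadjusted p under 0.05, and 1323 of the 6609 in the rest did. DESeq2 called 0 of the 120 genes it gave an adjusted p, and 2.33% of all genes. DESeq2 with the block called 12 of 145, 9 higher and 3 lower in siTj, where it called 12.4% of all genes. Of these 12 genes 8 were on chromosome 4, and 8 had a siGFP summit inside. The 9 called higher were CG31999, Sox102F, CG11155, bt, Kif3C and ci on chromosome 4, nrm on 3L, CG42748 on 2L and beta-Man on 3R. The 3 called lower were Slmap on 2L and, on chromosome 4, Pur-alpha and Ephrin, a gene of an Eph receptor ligand. The muscle gene bt was at 0.130, 0.856 and 0.0428 CPM per kb in siTj cells and at 0.0447, 0.167 and 0.0145 CPM per kb in siGFP cells, so the groups overlapped, and again each siTj library was above the siGFP library of its number. Its log2 fold change in DESeq2 with the block was 1.72 ± 0.62 (SE), with an adjusted p of 0.0449.

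Calls also changed with the libraries that stood apart. Without libraries siTj 2 and siPiwi 2, which stood apart by opposite-strand reads, the edgeR fit with the block called 4 of 141, ci, Sox102F, CG31999 and nrm, all higher in siTj, and 7.47% of all genes. The shares of these genes called in the last 2 fits, 4 of 141 and 12 of 145, were thus no larger than those of all genes. The transcription factor gene ci averaged 277.7 ± 145 CPM in siTj cells and 140.3 ± 36.6 CPM in siGFP cells (SD, n = 3 each). Its siTj libraries were at 255.8, 144.9 and 432.4 CPM and its siGFP libraries at 116.3, 122 and 182.4 CPM, so the groups overlapped, while each siTj library was above the siGFP library of its number. The log2 fold change was 0.98 ± 0.40 (SE) with an edgeR adjusted p of 0.607, and with the block 0.92 ± 0.28 with an adjusted p of 0.0997. Sox102F was at 5.31, 0.985 and 1.43 CPM per kb in siTj cells and at 0, 0.240 and 0.0264 CPM per kb in siGFP cells, and these groups did not overlap. For how many of all genes the groups lay apart in this way was not counted. Sox102F held 1 summit in siTj and 4 in siGFP cells, and ci held 0 in siTj and 1 in siGFP cells. Bounds of ci differed between libraries.

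Taken by region, the tested genes did not lean one way in siTj cells. Their median log2 fold change in the edgeR fit was −0.31 on 2L, −0.12 on 3L, 0.83 on 3R and 0.08 on chromosome 4, against 0.08 over all 10724 genes tested. With the block the medians were −0.22, 0.02, −0.26 and 0.13 in that order, against 0.02 over all genes, so 3R changed sign. Genes with a summit inside had medians of 0.23 without and 0.14 with the block, with 55 of 97 and 56 of 97 positive.

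After knockdown of Piwi or Ci, edgeR called no gene of these regions. The siRNA's target piwi, which lies outside these regions, was not called after siPiwi either (log2 fold change −3.11, edgeR adjusted p 0.822). Counts of 0 calls here thus do not show unchanged levels. After siPiwi edgeR called 0 of the 151 genes in both fits, where 0% of all genes were called, and the counts at an unadjusted p under 0.05 were 0 without and 5 with the block, against 39 and 135 of the 6609 genes in the rest of the arms. After siCi edgeR called 0 in both fits, again with 0% of all genes, and 2 and 12 of the 151 genes had an unadjusted p under 0.05, against 42 and 235 of the 6609 in the rest. DESeq2 called 0 after siPiwi without the block and with it, where it called 0.0202% and 0.107% of all genes. After siCi it called 0 without the block, where it called 0.0135% of all genes. With the block it called 0.076% of all genes and 1 here, ci itself, the siRNA's target on chromosome 4. The log2 fold change of ci after siCi was −1.26 ± 0.40 in edgeR with an adjusted p of 1.00. Median log2 fold changes after siCi were −0.39 on 2L, −0.17 on 3L, −0.21 on 3R and −0.28 on chromosome 4, against −0.01 over all genes tested. Of the 151 genes 107 were negative after siCi, and 118 with the block, against 3331 and 3554 of the 6609 in the rest. After siPiwi the medians were −0.17 on 2L, −0.17 on 3L, 0.835 on 3R and −0.23 on chromosome 4, against 0.03 over all genes. These leanings were not tested.

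Among the siTj libraries, siTj 2 had the highest levels of genes with a summit both on the pericentric ends and in the rest of the arms. Genes with a summit on 3L had medians of 0.521 CPM per kb in siTj 2, against 0.0662 and 0.244 in the other siTj libraries and 0 to 0.0716 in siGFP cells. On 3R the median was 1.09 in siTj 2, against 0 and 0.0129 in the other siTj libraries. The siPiwi 2 library showed medians of 1.61 CPM per kb on 2L, 0.691 on 3L and 0.986 on 3R, each above the other siPiwi libraries. In the rest of the arms the median was 1.90 CPM per kb in siTj 2, against 0.825 and 1.15 in the other siTj libraries, and 2.28 in siPiwi 2, against 0.893 and 0.980 in the other siPiwi libraries. Both libraries also had the raised share of opposite-strand reads given above, whose part in these levels was not tested. On chromosome 4 they were the lowest of their groups, at 4.08 and 3.23 CPM per kb.

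Wild-type ovaries had higher median levels of covered genes in most regions, on a scale set apart from that of the OSS libraries. The median level of the 59 chromosome 4 genes was 11.3 to 21.4 CPM per kb over the 6 ovary libraries, above all siGFP libraries. On 2L the 6 ovary medians were 0.493 to 1.60 CPM per kb and on 3L 0.565 to 4.03, both above all 3 siGFP values, and on 3R they were 0.117 to 0.518 and overlapped them. In the rest of the arms, genes with a summit had ovary medians of 0.403 to 0.745 CPM per kb and siGFP medians of 0.760 to 0.925, the opposite order.

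Among writers, readers and erasers of H3K9 methylation and their Piwi partners, 28 of 30 listed genes were found and tested. In siTj cells 1 was lower in the edgeR fit and 4 were lower with the block, and 0 were higher in either. Of all genes 0.0466% were lower and 0% higher in the edgeR fit, and 1.45% were lower and 2.06% higher with the block. The piRNA factor gene mael was at 35.7, 34.3 and 33.6 CPM in siTj cells and at 152.7, 121.3 and 151.0 CPM in siGFP cells, a log2 fold change of −2.04 ± 0.27 with an adjusted p of 0.0431. With the block, nxf2 (log2 fold change −1.69, adjusted p 0.00499), piwi (−1.998, adjusted p 0.0216) and the Heterochromatin Protein 1 gene, HP1a (−0.93, adjusted p 0.0438), passed too. HP1a was at 458.4, 304.5 and 459.3 CPM in siTj cells, against 801.6, 567.3 and 979.0 CPM in siGFP cells. The 2 groups did not overlap for mael, nxf2, piwi or HP1a. They did not overlap either for the listed genes HP1c and E(z), which edgeR with the block did not call (adjusted p 0.117 and 0.376). How many of all genes had groups that did not overlap was not counted. The methyltransferase genes Su(var)3-9 and egg had log2 fold changes of −0.03 and −0.38 in the edgeR fit, with adjusted p-values of 0.981 and 0.816, and Pof, which encodes the coating protein of chromosome 4, averaged 10.1 CPM in siTj cells and 7.53 CPM in siGFP cells with an adjusted p of 0.817. After siPiwi 0 of the 28 were called in either edgeR fit. These 28 include piwi, the siRNA's own target, at a log2 fold change of −3.11 (edgeR adjusted p 0.822). With the block it was −3.17 (edgeR adjusted p 0.0541). Counts of 0 calls after siPiwi thus do not show unchanged levels.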

How the data were processed

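H3K9me3 and H3K4me3 Cut&Run summits, TJ peaks and long RNA were taken from the deposited files. Per the submitters' processing notes Bowtie2, MACS2, FastQC and DESeq2 were used, and versions and read depths of the Cut&Run libraries are not given in the sources used here. Per the labels, each Cut&Run list comes from 1 library. The lists hold positions and scores made by the authors. These were read as −log10 q-values from their lowest value of 1.30, since the deposited lists have no header, and were used only to rank or describe summits. The TJ list holds 1987 deposited peak positions of 500 bp with no other value. Long RNA tables hold deposited counts of uniquely mapped reads per gene and strand, over the locus and over its UTR and coding parts, per the file headers. Each table lists 16369 genes, and bounds of 756 differed between OSS libraries. No value column belonged to another series (0 such columns).

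Summits within 500 bp counted as found. A gene was covered when a siGFP summit lay inside its bounds. Intervals are exact Poisson or binomial at 95%. They treat summits as independent, and by distance from gene starts a summit near several starts was counted for each, so they may be too narrow. Levels are unique reads on the gene's strand in annotated UTR and coding parts, as CPM of the TMM library size per kb. TMM sizes were computed apart for the 12 OSS libraries and the 6 ovary libraries. Locus counts were tested with edgeR 4.0.16 in R 4.3.3 (filterByExpr, TMM, quasi-likelihood F test, Benjamini-Hochberg at 0.05 over 10724 genes) in 1 fit of the 12 OSS libraries, and with DESeq2 1.42.0. The procedure was tested on simulated data. Libraries that share a number deviated from their groups together in each of 18 pairs (r between 0.248 and 0.900; a pair counted when r was over 0.1), so edgeR was also run with that number as a blocking term. As the labels name no separate cultures, the p-values cover the spread of these libraries and it may be technical. Genes were named by region: the 3 with most summits, the 3 with the highest level among covered genes, and a fixed list of known genes. The genes of longest gaps, and genes called only in other fits, were named after their values were seen, and so were MED26 and bgcn. Members and lists were chosen with earlier results of these data known. Alternatives were other match windows, score minima, list lengths, gene bounds, scalings, filters, DESeq2, the block and leaving out libraries. Lists after siPiwi were not analysed here.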

Additional observations from a re-analysis of the deposited data

How the results depend on the processing

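The share of siGFP summits found in siTj moved with every setting but chromosome 4 stayed below the 3 pericentric ends in each. With a match window of 250 bp it was 43.1% on 2L, 44.4% on 3L, 40.0% on 3R, 20.9% on chromosome 4 and 19.8% in the rest of the arms, and with 1000 bp 70.5%, 74.5%, 66.5%, 40.9% and 37.8%. At equal list length it was 70.2%, 66.8%, 69.2%, 50.9% and 40.2%, and among siGFP scores of at least 10 it was 74.6%, 72.7%, 76.8%, 61.2% and 46.1%. The share found in both Plain lists was 35.9%, 36.6%, 35.0%, 40.9% and 29.4% with 250 bp, 67.7%, 70.3%, 64.7%, 69.9% and 59.6% with 1000 bp, 43.0%, 42.7%, 42.6%, 63.0% and 40.9% at equal length, and 51.2% on 3L, 58.1% on 3R, 67.2% on chromosome 4 and 52.9% in the rest for scores of at least 10. With 1 Plain list left out it ranged over 57.3 to 65.6%, 58.2 to 66.2%, 54.9 to 69.9%, 61.4 to 70.3% and 49.7 to 66.2%. Summits per 100 kb fell to 21.3, 20.1, 15.0, 4.97 and 1.86 for scores of at least 10, and to 27.6, 30.8, 28.5, 13.7 and 3.78 with summits within 1000 bp counted as 1. The share of genes with a summit was 20.4% on 2L, 38.3% on 3L, 28.8% on chromosome 4 and 3.99% in the rest for scores of at least 10, and 9.16% in the rest with bounds widened by 500 bp. The causes were not tested.

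The count of called genes stayed at 0 in the 4 regions under the replicate block, RLE scaling, no filter, reads with several positions, the 2 compared groups alone and DESeq2, for siTj, siPiwi and siCi. Exceptions, chosen after seeing the data, were DESeq2 with the replicate block (12 after siTj, 1 after siCi) and the block without siTj 2 and siPiwi 2 (4 after siTj). With 1 library left out the count ranged from 0 to 1 after siTj, the 1 being ci in the block fit without siTj 2, and was 0 after siPiwi and siCi. Median levels of genes with a summit stayed within the spread between libraries in 21 of 30 settings and moved in 9. With reads and length of the whole locus, chosen after seeing the data, they were 2.23 on chromosome 4, 0.203 on 2L and 0.482 in the rest, against 6.85, 0.430 and 0.912 CPM per kb. With at least 3 summits inside they were 0.132 on 3L, 0.400 on 3R and 4.10 in the rest, against 0.0745, 0.160 and 0.912. Without siGFP 2 the 2L median was 0.208, without siGFP 3 the 3L median was 0.0358, and with reads of several positions the rest was at 1.05. The median on chromosome 4 stayed above the pericentric ones in each of these. Depth limits the RNA levels of silent genes, and only 1 siTj library limits every H3K9me3 comparison.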
